A study of Mus musculus with 4 samples.

Results

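The cells described here are Zic1 and Msx1 positive mesoderm: GFP-positive cells of the Tbx1 lineage of mouse embryos that held at least 2 raw unique molecular identifiers (UMIs, 1 per captured transcript) of Zic1 and at least 2 of Msx1. Cells with more than 2 UMIs of Arg1, more than 1 of Sox2, more than 2 of Epcam or more than 2 of Cdh5 and Pecam1 together were left out, where Sox2 marks neural, Epcam epithelial and Cdh5 and Pecam1 endothelial cells. Of 14243 cell barcodes in 4 single-cell RNA libraries, 339 met the rule. There were 15 such cells in the Ctrl library at E8.5, 3 in the cKO library at E8.5, 95 in the Ctrl library at E9.5 and 226 in the cKO library at E9.5. The members were chosen by their counts of Zic1 and Msx1, so those levels and every comparison of the members with other cells are descriptions and carry no test.

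All embryos were of the Swiss Webster strain. Ctrl embryos were Tbx1Cre/+;Rosa26-GFPflox/+ and cKO embryos Tbx1Cre/flox;Rosa26-GFPflox/+. The Tbx1Cre knock-in inactivates the Tbx1 copy it sits in, so Ctrl cells were heterozygous for Tbx1 and no library was wild type. Cre was driven from the Tbx1 locus, and a cell was sorted if it or its ancestors had switched on Cre, whether or not it still expressed Tbx1. At E8.5 the rostral part of the embryo was collected, described in the labels as the upper part of the body, and at E9.5 the pharyngeal apparatus and heart, collected with the back by the study's account. Embryos were not genotyped for sex, and live GFP-positive cells were run with the 10x Chromium 3' chemistry. Each combination of genotype and stage was 1 library, so no comparison between libraries has a replicate check and none carries a p-value. Genotype and library cannot be told apart at either stage, and between stages the dissection differs as well.

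Zic1 encodes a zinc finger transcription factor of the Zic family, known for its roles in neural tissue, neural crest and the dorsal part of the paraxial mesoderm. Msx1 and its relative Msx2 encode homeodomain repressors that are widely induced by bone morphogenetic protein (BMP) signals in mesenchyme of the head, limb buds and body wall. Igf1 encodes insulin-like growth factor 1, and Gdf10 encodes a secreted member of the TGF-beta superfamily. Canonical WNT signalling acts through beta-catenin and factors of the TCF and LEF family, and its target genes include several of its own feedback inhibitors.

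The libraries held 1434, 1090, 5453 and 6266 barcodes in the order E8.5 Ctrl, E8.5 cKO, E9.5 Ctrl and E9.5 cKO, with medians of 15887.5 to 23883 UMIs per cell. The E8.5 libraries and the E9.5 Ctrl library were counted against a table of 27998 genes and the E9.5 cKO library against one of 31053, and the 27514 shared identifiers hold 99.4 to 99.9% of the UMIs of each library. Members were deeper than the other mesenchymal cells of their library, with medians of 23005, 27449, 20949 and 19542 UMIs against 19004, 24411, 17518 and 17273. A count table over 3' tags need not show the loss of a floxed exon, and Tbx1 itself stood at 45.7, 110, 27.5 and 27.3 UMIs per 1000000 UMIs (UPM) in the members of E8.5 Ctrl, E8.5 cKO, E9.5 Ctrl and E9.5 cKO. At E9.5 the log2 ratio of cKO to Ctrl members for Tbx1 was -0.01 (95% counting interval -0.47 to 0.47), so the tag level of the targeted gene did not separate the libraries in these cells. Pairs of libraries shared 2 to 55 barcodes, no member shared its barcode with a member of another library, and 5 members in all (1 Ctrl and 4 cKO, both at E9.5) had a barcode that also occurred in another library. No doublet caller was run, and 15 members (1 at E8.5 Ctrl, 3 at E9.5 Ctrl and 11 at E9.5 cKO) lay above the 98th percentile of UMIs of their library. Embryo sex was mixed and unequal: a Y-linked transcript was seen in 5 of 15, 2 of 3, 44 of 95 and 34 of 226 members, and the part of sex in the genotype ratios was not tested.

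Members made up a larger share of the cKO library than of the Ctrl library at E9.5. They were 1.74% of all barcodes in E9.5 Ctrl (exact 95% interval 1.41 to 2.13) and 3.61% in E9.5 cKO (3.16 to 4.10). At E8.5 they were 1.05% of Ctrl barcodes (0.587 to 1.72) and 0.275% of cKO barcodes (0.0568 to 0.802). These intervals, like all intervals given here, cover counting error only and not the spread between embryos or libraries. When every cell was thinned to 10000 UMIs, the shares were 0.308% in E8.5 Ctrl, 0.0994% in E8.5 cKO, 1.14% in E9.5 Ctrl (0.865 to 1.48) and 2.38% in E9.5 cKO (1.99 to 2.82), so the order of the libraries was kept at equal depth. In the E8.5 cKO library that thinned share was 1 cell, against 4 cells of E8.5 Ctrl, 56 of E9.5 Ctrl and 132 of E9.5 cKO.

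**Figure D1:**
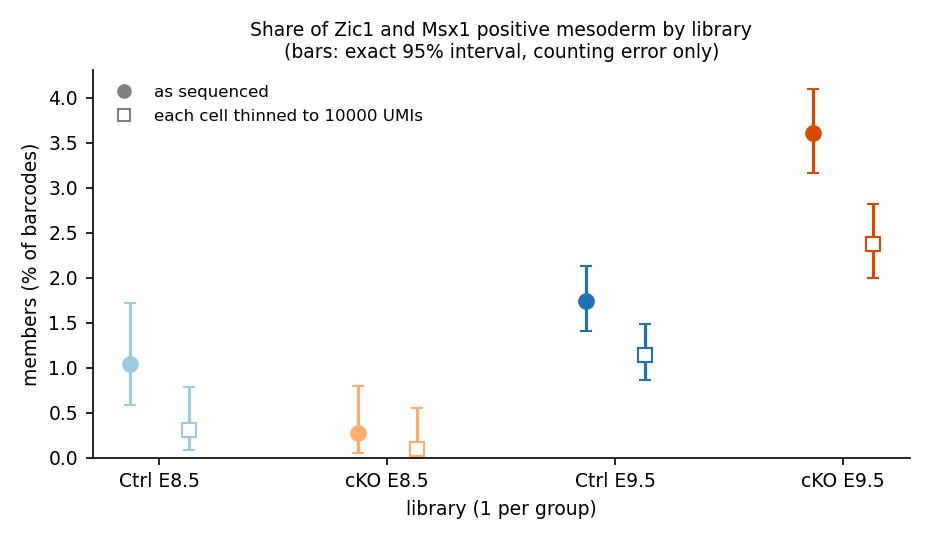
Share of barcodes that met the Zic1 and Msx1 rule in each library, as sequenced and after thinning each cell to 10000 UMIs. The vertical axis is in percent, points are shares and bars are exact 95% intervals for counting error. At E9.5 the cKO share (3.61%, thinned 2.38%) stands above the Ctrl share (1.74%, thinned 1.14%) at both depths.

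Endothelial cells rarely held 2 or more UMIs of Zic1, and none held 2 or more of both genes. For Msx1 the endothelial background was separated only in E9.5 Ctrl. Of 317 endothelial cells of E9.5 Ctrl, set apart by more than 2 UMIs of Cdh5 and Pecam1 (median 20436 UMIs), 1 had 2 UMIs or more of Zic1, 7 had 2 or more of Msx1 and none had both (exact upper bound 1.16%). In E9.5 cKO, 0 of 69 endothelial cells (median 16335 UMIs) had 2 or more UMIs of Zic1 (exact upper bound 5.21%), and 3 had 2 or more of Msx1. Among cells that passed the exclusions, 5.82% had 2 or more UMIs of Zic1 in E9.5 Ctrl and 9.13% in E9.5 cKO, and 10.3% and 11.6% had 2 or more of Msx1, at medians of 15822 and 15390 UMIs. For Zic1 these shares lay above the upper bounds of the endothelial shares (1.75% and 5.21%). For Msx1 the E9.5 Ctrl share lay above the endothelial bound of 4.50%, whereas the endothelial share in E9.5 cKO was 4.35% (exact interval 0.906 to 12.2), an interval that holds the 11.6%. Cells with more than 2 Epcam UMIs had 2 or more of Msx1 in 4.93% and 4.98% of cases in E9.5 Ctrl and E9.5 cKO. Whether such cells lack Msx1 was not tested. At E8.5, Msx1 reached 2 UMIs in 0 of 21 Ctrl and 2 of 13 cKO endothelial cells, against 7.48% and 8.66% of cells passing the exclusions, so at that stage its background was not separated.

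Of the cells with 2 or more UMIs of Zic1 that passed the exclusions, 68.2%, 42.9%, 41.7% and 49.6% also had 2 or more of Msx1 in the 4 libraries, and of those with 2 or more of Msx1, 18.8%, 5.26%, 23.5% and 38.9% had 2 or more of Zic1. These are the values the rule used and describe the selection.

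**Figure D2:**
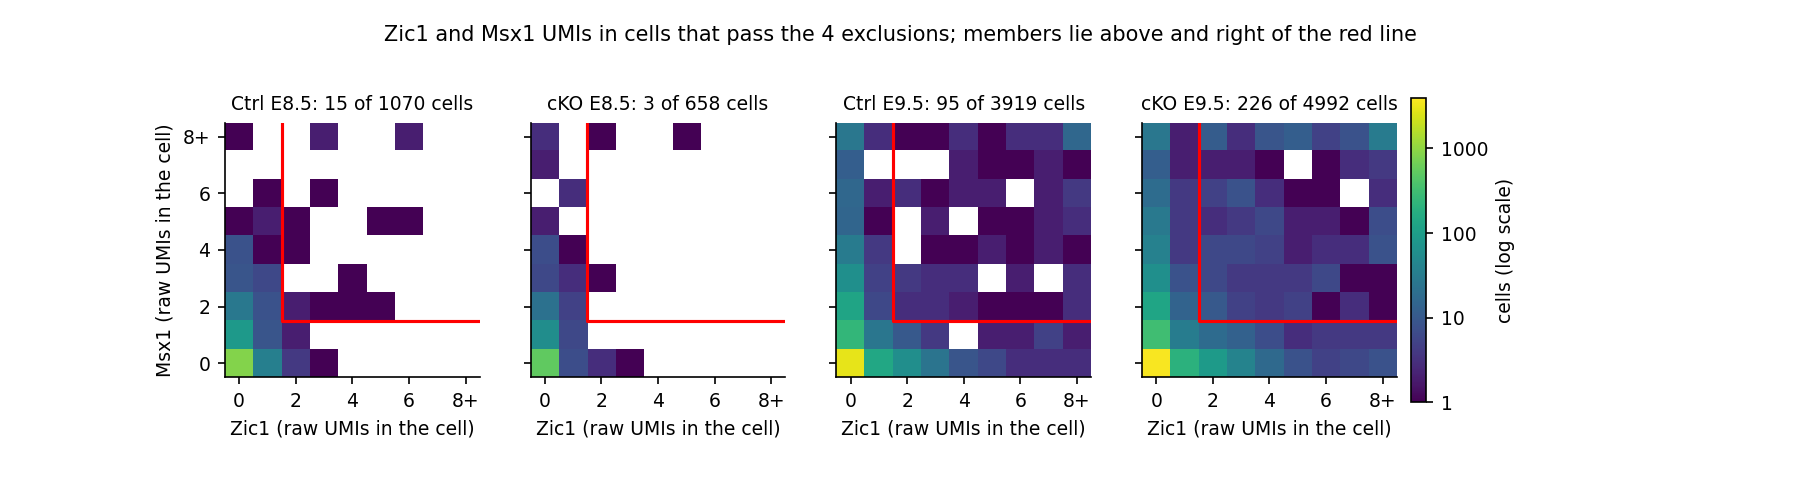
Number of cells at each count of Zic1 UMIs (horizontal axis) and Msx1 UMIs (vertical axis) in each library, among cells that pass the exclusions, with colour giving the number of cells on a log scale and counts of 8 or more pooled. The red line marks 2 UMIs of each gene, and the cells beyond it are the members: 15 of 1070, 3 of 658, 95 of 3919 and 226 of 4992.

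The median member held 3, 2, 6 and 5 UMIs of Zic1 and 5, 8, 6 and 5.5 of Msx1 in the 4 libraries, with maxima of 18 and 28. At the edge of the rule, 22 Ctrl and 62 cKO members at E9.5 had exactly 2 UMIs of 1 of the genes or of both, while 21 and 38 cells had Msx1 at 2 or more but 1 UMI of Zic1, and 25 and 53 had Zic1 at 2 or more but 1 UMI of Msx1. Msx2 stood at 132 UPM in the Ctrl members at the edge and at 143 in those with 3 or more UMIs of both genes, and at 79.2 and 84.6 UPM in the cells just outside for Zic1 and for Msx1. In E9.5 cKO the same values were 85.9 and 116 UPM inside and 38.1 and 46.6 outside. The edge did not separate the other genes in this way. Igf1 stood in E9.5 Ctrl at 185 and 217 UPM inside and at 176 and 107 outside, and in E9.5 cKO at 114 in members at the edge and at 128 in cells just outside for Zic1. Gdf10 in E9.5 Ctrl was at 61.7 and 51.8 UPM inside and at 69.3 just outside for Zic1, and Nkd1 at 245 UPM in members with 3 or more of both and at 269 just outside for Msx1.

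Of the marker genes that the rule did not use, Msx2 and Gdf10 set the members apart from other mesenchyme in every library. Igf1 did so at E9.5. Other mesenchyme here means cells that pass the same exclusions, are not members and hold at least 2 UMIs of Twist1 and at least 2 of Prrx1 and Prrx2 together: 406, 365, 1610 and 2082 cells in the 4 libraries. Msx2 was at 110, 55.2, 141 and 108 UPM in members of E8.5 Ctrl, E8.5 cKO, E9.5 Ctrl and E9.5 cKO, and at 7.98, 13.4, 18.1 and 14.6 in other mesenchyme. All 4 member levels lay above all 4 levels of other mesenchyme. Msx2 lies on chromosome 13 (53466881 to 53472780), Igf1 on chromosome 10 (87858265 to 87937047) and Gdf10 on chromosome 14 (33923587 to 33936514), apart from Msx1 on chromosome 5 (37820491 to 37824585), all in GRCm38.p6. Gdf10 was at 29.6, 33.1, 54.1 and 27.6 UPM in members against 5.03, 6.21, 11.0 and 6.27. In E8.5 cKO members the levels of Msx2 and Gdf10 rest on 5 and 3 UMIs. Igf1 was at 18.8, 11.0, 209 and 136 UPM against 9.08, 7.93, 52.9 and 35.2, so its separation was an E9.5 feature: the log2 ratio of members to other mesenchyme was 1.99 in Ctrl and 1.95 in cKO at E9.5, but 1.05 and 0.48 at E8.5, where it rests on 7 and 1 UMIs.

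Most single members carried several of these markers. At least 2 of Msx2, Igf1 and Gdf10 were detected in 84 of 95 E9.5 Ctrl members (88.4%) and in 160 of 226 E9.5 cKO members (70.8%), against 12.2% and 8.07% of other mesenchyme and 1.26% and 1.45% of endothelial cells. At 10000 UMIs per cell the shares were 68.8% of Ctrl and 42.9% of cKO members, with 7.61% and 4.78% of other mesenchyme. At E8.5, 10 of 15 and 2 of 3 members carried 2 or more of the markers as sequenced. At E9.5 the members carried the markers that the label names. Label and markers were chosen with earlier results of these data known, so these levels describe the label and do not test it. At E8.5 Igf1 was close to the level of other mesenchyme and the cKO library held only 3 members.

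Members carried the general mesenchyme genes at about the level of other mesenchyme. Twist1, a basic helix-loop-helix factor of mesoderm and neural crest mesenchyme, stood at 161, 287, 240 and 254 UPM in members, against 166, 184, 197 and 196 in other mesenchyme, which had been selected for it. Of 20 general mesenchyme genes, only Vim was called higher in E9.5 Ctrl members, none was called lower, and the median log2 ratio to other mesenchyme was 0.02. A gene is called throughout where its log2 ratio is 1 or more in size, its counting interval excludes 0 and at least 30 UMIs were summed over both groups. In E9.5 cKO none of the 20 was higher and Meis1, a homeodomain cofactor of Hox proteins, was lower. Over all genes 2.67% were called higher and 2.15% lower in E9.5 Ctrl members than in other mesenchyme, 2.42% and 2.65% in E9.5 cKO, and 1.95% and 1.32% in E8.5 Ctrl.

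Markers of other cell types were not all low. Sox10, the defining factor of migrating neural crest, had 0, 0, 0 and 1 UMIs over all members of the 4 libraries, Foxd3 had none and Tfap2b had none. The 15 neural crest genes summed to 26.9, 11.0, 97.6 and 117 UPM in members and 44.8, 56.6, 60.8 and 65.9 in other mesenchyme, with 13, 14, 8 and 7 of them at 0. At E9.5 the crest sum in members was 1.60 and 1.77 times that of other mesenchyme. Most of it was Ngfr, a neurotrophin receptor, at 68.6 and 72.0 UPM against 17.4 and 12.7, which was called higher in both E9.5 libraries and in E8.5 Ctrl. The 15 neural genes other than Sox2 summed to 34.9, 22.1, 46.9 and 50.1 UPM against 30.7, 25.4, 32.8 and 35.5, so they were above other mesenchyme in 3 of 4 libraries. Tubb3, a tubulin of neurons, was called higher at E9.5, at 16.9 and 19.5 UPM against 5.24 and 5.77. The epithelial genes other than Epcam summed to 48.4, 11.0, 28.5 and 26.0 UPM against 38.8, 36.4, 27.1 and 20.9. Endothelial genes other than those of the rule stood below other mesenchyme in all 4 libraries (102, 55.2, 44.4 and 49.2 UPM against 240, 307, 79.1 and 68.3). The part of other cell types in the members' values was not tested.

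A single E9.5 Ctrl member was high in cardiomyocyte genes. It held 417 of the 486 UMIs of the 12 cardiomyocyte genes summed over the 95 cells, while the next cell held 15. The summed level was 235 UPM with this cell and 33.8 without it, against 33.8 in E9.5 cKO members. Other mesenchyme held 4 cells with more than 100 UMIs of these genes in E9.5 Ctrl and 5 in E9.5 cKO. Ratios of cardiomyocyte genes between genotypes are therefore given without it, as an alternative chosen after seeing the data, and whether the barcode holds more than 1 cell was not tested.

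Many WNT pathway genes stood above other mesenchyme. In E9.5 Ctrl, 11 of 33 WNT pathway genes tested were called higher and 2 lower (median log2 ratio 0.48), in E9.5 cKO 15 of 36 were higher and 2 lower (0.40), and in E8.5 Ctrl 5 of 21 were higher and 1 lower (0.35). Medians over all genes tested lay between -0.01 and 0.03. The shares of all genes called higher were 2.67%, 2.42% and 1.95% in the same comparisons.

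Among the intracellular parts of the pathway, Sp5, a transcription factor that beta-catenin induces directly, was at 69.9, 77.2, 82.1 and 68.8 UPM in members of the 4 libraries and at 13.2, 17.1, 13.1 and 9.21 in other mesenchyme. Member levels were 4 or more times those of other mesenchyme in each library. Nkd1, which binds Dishevelled and dampens the signal, was at 210, 154, 257 and 219 UPM against 63.2, 57.2, 79.8 and 54.6. Lef1, the DNA-binding partner of beta-catenin, was at 134, 33.1, 85.5 and 64.4 UPM against 35.2, 34.1, 32.4 and 21.7, so the 3 E8.5 cKO cells, with 3 UMIs in all, were the exception. Axin2, another feedback inhibitor, gave a log2 ratio to other mesenchyme of 0.64 in E9.5 Ctrl and 1.48 in E9.5 cKO, and only the latter passed the call. Tcf7, a relative of Lef1, had log2 ratios of 1.03 and 1.62 in the same libraries.

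Among the secreted parts, Dkk1, an inhibitor of the LRP5 and LRP6 co-receptors, was at 56.4, 44.1, 47.3 and 30.8 UPM in members against 8.71, 11.7, 10.3 and 22.8 in other mesenchyme. The difference was smallest in E9.5 cKO, where other mesenchyme stood highest. Frzb, a secreted frizzled-related protein, was at 80.6, 121, 75.4 and 60.7 UPM against 19.5, 28.8, 20.3 and 20.4. Notum, an extracellular enzyme that removes the lipid group of WNT ligands, had a log2 ratio of 1.31 in E9.5 Ctrl and 2.19 in E9.5 cKO. Of the agonists, Rspo3, which stabilises frizzled receptors, was at 68.6 and 58.1 UPM in E9.5 members against 13.4 and 24.2, and had 2 and 0 UMIs in all members at E8.5. Wnt6, a ligand known from surface ectoderm, had a log2 ratio of 2.90 in both E9.5 libraries at only 5.31 and 14.1 UPM, and in E9.5 Ctrl the ratio was -0.75 when all other barcodes, epithelial cells included, were the comparison.

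The promoters of the genes that stood highest in members were read for the TCF and LEF core letters CTTTGAT and CTTTGAA on either strand, in the 250 bases before the annotated start. The 21 genes looked for included the 15 highest in both Ctrl libraries, named in the next paragraph. The others were the WNT genes called higher in both E9.5 libraries. Promoter sequences came from RefSeq (build GRCm38.p6), with those of a single chromosome left out, and 16 of the 21 genes had one. A gene held a match if any of its annotated starts did. This was so for 4 of the 16 (25%), against 2333 of the 27025 genes read (8.63%), and the difference between these shares was not tested. The windows of the 4 are given 5' to 3' with the matching letters in capitals, and show where the match lies, not that a factor binds there.
Sp5 (chr2:70474809-70474835, plus strand, match 97 bases before the start): gcaaggccccCTTTGATcaggaaaatc
Dkk1 (chr19:30549597-30549623, minus strand, 110 bases before the start): cctcccaaagCTTTGAAatcccatccc
Stard8 (chrX:99042390-99042416, plus strand, match on the opposite strand, 174 bases before the start): gctctgctctTTCAAAGctctgccctg
Tnfrsf19 (chr14:61038173-61038199, minus strand, match on the opposite strand, 195 bases before the start): tgaatgggggATCAAAGtgacaaacta

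By the rule for named genes, the genes highest in members over other mesenchyme in both Ctrl libraries, after Zic1 and Msx1, were Msx2, Sp5, Nkd1, Dkk1, Frzb, Pdlim2, Cited1, Gdf10, Lef1, Stard8, Tril, Gng12, Tnfrsf19, Vim and Gap43. Of the 15, Sp5, Nkd1, Dkk1, Frzb and Lef1 are on the WNT pathway list. Tnfrsf19, a TNF receptor family member also called Troy, had log2 ratios of 1.58 in E8.5 Ctrl, 1.70 in E9.5 Ctrl and 1.80 in E9.5 cKO. Stard8, a GTPase activating protein, had 2.07, 1.96 and 1.92. Cited1, a transcriptional coregulator, had 1.88, 1.71 and 1.44, and Gng12, a G protein gamma subunit, had 1.39, 1.66 and 1.47. Pdlim2, a PDZ and LIM adaptor of the actin cytoskeleton, had 2.04 and 2.30 in the Ctrl libraries and 1.43 in E9.5 cKO.

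**Figure D3:**
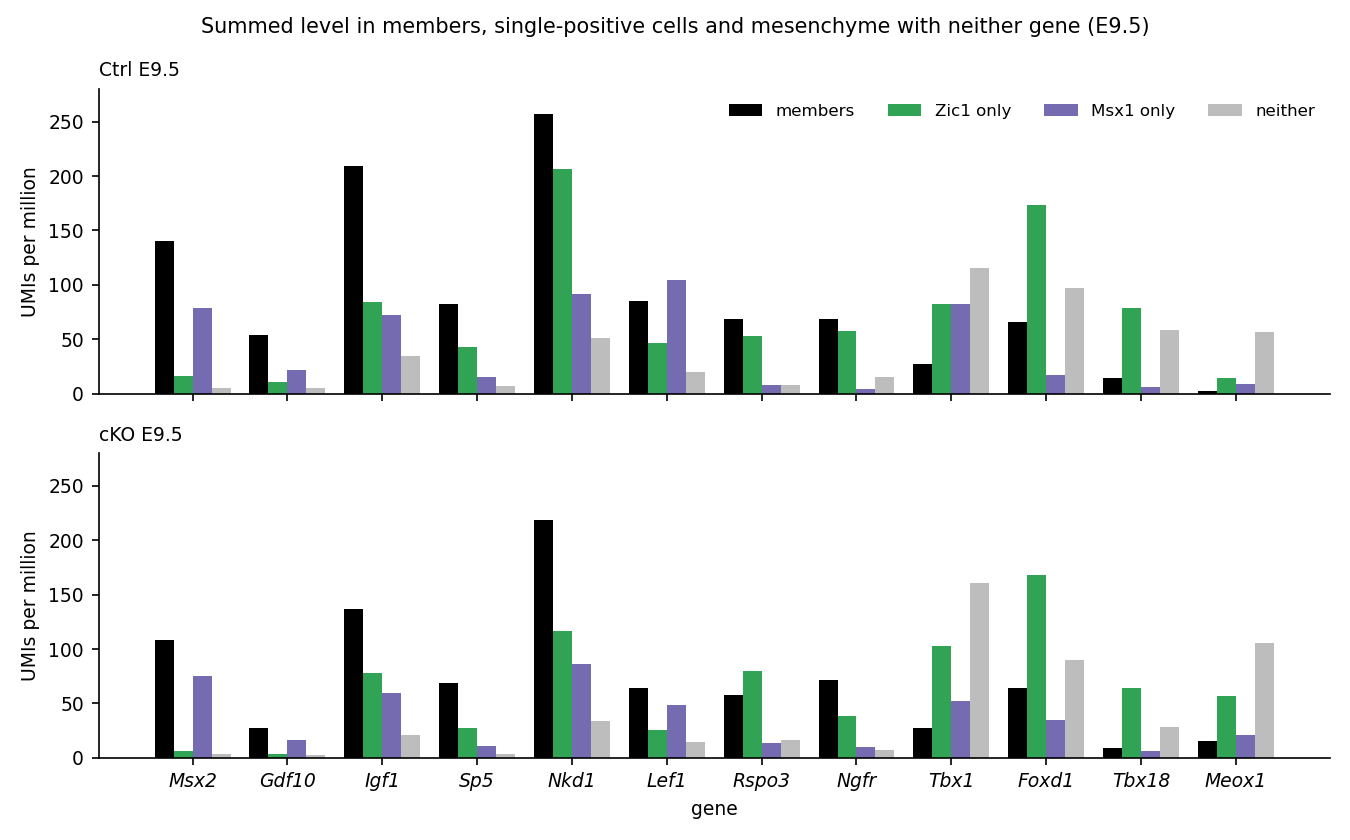
Summed level in UMIs per 1000000 UMIs (vertical axis) of 12 genes in members, Zic1-only cells, Msx1-only cells and mesenchyme with neither gene, at E9.5 in Ctrl and cKO. Only the last set was selected for Twist1 and for Prrx1 and Prrx2. Bars start at 0 and there is 1 library per genotype. Msx2 is high in members and Msx1-only cells, Nkd1 and Rspo3 in members and Zic1-only cells, and Tbx18 and Foxd1 are highest in Zic1-only cells.

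Single-positive cells showed which genes went with Zic1, with Msx1 or with both. Zic1-only cells (2 or more UMIs of Zic1 and none of Msx1) numbered 108 in Ctrl and 177 in cKO at E9.5, and Msx1-only cells 289 and 317. Msx2 followed Msx1: in E9.5 Ctrl it was at 141 UPM in members, 78.5 in Msx1-only cells and 15.8 in Zic1-only cells, and in E9.5 cKO at 108, 74.9 and 6.21. Rspo3 followed Zic1, with 68.6 UPM in E9.5 Ctrl members, 53.3 in Zic1-only cells and 8.06 in Msx1-only cells, and in E9.5 cKO it was higher in Zic1-only cells (79.4) than in members (58.1). Lef1 was at 85.5 UPM in members, 104 in Msx1-only cells and 46.2 in Zic1-only cells.

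Set against single-positive cells and mesenchyme with neither gene, Igf1 and Sp5 were highest in members of both E9.5 libraries. Nkd1 was highest in members of E9.5 Ctrl. Igf1 was at 209 UPM in E9.5 Ctrl members, 84.3 in Zic1-only cells, 72.3 in Msx1-only cells and 34.2 in mesenchyme with neither, and at 136, 78.2, 59.9 and 20.6 in E9.5 cKO. Sp5 was at 82.1, 42.7, 15.6 and 6.49 UPM in E9.5 Ctrl and at 68.8, 27.6, 11.2 and 3.14 in E9.5 cKO, the same order in both. Nkd1 was at 257, 207, 91.7 and 51.5 UPM in E9.5 Ctrl. The presence of both genes was set by UMI counts, so a cell without a Zic1 UMI may still express it. Mesenchyme with neither gene was taken from other mesenchyme. Members and single-positive cells were not selected for Twist1, Prrx1 and Prrx2, so these sets are unlike in that respect.

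Relatives of Zic1 stood above other mesenchyme together with it. Zic4 lies head to head with Zic1 on chromosome 9 (Zic1 at 91358058 to 91365768, Zic4 at 91365631 to 91389351, GRCm38.p6), and the annotated genes overlap by a short stretch at their starts. Whether Zic4 counts are independent of the rule was not tested. Zic4 was at 32.2, 22.1, 33.8 and 24.9 UPM in members against 0.736, 0.321, 1.62 and 2.91 in other mesenchyme. Zic2 was at 46.9 and 20.8 UPM at E9.5 against 19.2 and 8.11, and Zic5 at 36.7 and 42.1 against 21.3 and 17.6. Zic4 and Zic2 were called higher in both E9.5 libraries and Zic5 in E9.5 cKO, with a log2 ratio of 0.78 in E9.5 Ctrl that did not pass the call.

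BMP pathway genes did not move as a group. Of 28 tested, 2 were called higher and 1 lower in E9.5 Ctrl (median log2 ratio 0.03) and 2 higher and 3 lower in E9.5 cKO (-0.01). Gdf10 was among the higher genes in both. Id2, a direct BMP target that blocks basic helix-loop-helix factors, was at 382, 519, 769 and 795 UPM in members and at 324, 328, 486 and 518 in other mesenchyme, which did not pass the call in any library. Bmp4 was at 13.4, 33.1, 43.0 and 36.7 UPM against 8.47, 18.7, 35.9 and 26.9, likewise short of it.

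Somitic genes were low in members at E9.5. Of 11 somitic and paraxial genes tested in E9.5 Ctrl, none was called higher and 8 were called lower (median log2 ratio -1.56), and in E9.5 cKO 1 of 13 was higher and 7 were lower (-1.40). Meox1, a homeodomain factor of somites, was at 1.93 UPM in E9.5 Ctrl members against 44.0 in other mesenchyme, and Foxc2, a forkhead factor of paraxial mesoderm, at 26.1 against 76.8. In E8.5 Ctrl none of 11 was called in either direction (0.11), and Meox1 was at 43.0 UPM in members against 52.9.

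Cranial and cardiopharyngeal genes were divided. Among 18 cranial mesenchyme genes tested in E9.5 Ctrl, 3 were higher (Alx1, Alx4 and Lmx1b) and 8 lower, and in E9.5 cKO 2 of 20 were higher and 5 lower. Lmx1b, a LIM homeodomain factor of dorsal limb, periocular and dorsal neural territories, was at 9.66 and 15.4 UPM in E9.5 members against 1.45 and 1.34, and had no UMI in members at E8.5. Alx4, a homeodomain factor of skull and limb mesenchyme, was at 17.9 and 20.8 UPM against 7.53 and 8.5. Tbx18, a T-box factor of anterior somites and epicardium, was at 14.0 and 8.68 UPM against 51.2 and 27.2, and Foxf2, a forkhead factor of pharyngeal arch mesenchyme, at 1.45 and 2.17 against 14.2 and 9.99.

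Of the cardiopharyngeal mesoderm genes, 2 of 17 were called higher and 5 lower in E9.5 Ctrl and 1 higher and 9 lower in E9.5 cKO. Tbx1 gave a log2 ratio of -1.87 in E9.5 Ctrl and -2.29 in E9.5 cKO. Isl1, the LIM homeodomain factor of second heart field progenitors, had 13 and 15 UMIs over all E9.5 members and log2 ratios of -1.66 and -1.84. Ebf2, a helix-loop-helix factor of the pharyngeal mesoderm, was at 24.6 and 23.9 UPM against 75.2 and 65.5.

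Hedgehog readouts were low and co-receptors high. Ptch1 and Gli1, the standard targets of hedgehog signalling, were at 9.66 and 1.93 UPM in E9.5 Ctrl members against 34.8 and 9.96 in other mesenchyme, and at 18.2 and 3.04 in E9.5 cKO members against 42.4 and 6.48. Gas1, a membrane protein that helps cells respond to hedgehog ligand, was at 247 and 259 UPM in E9.5 members against 105 and 96.0. Cdon, a co-receptor of the same kind, had log2 ratios of 1.22 and 1.77. Over the list, 2 of 13 genes were higher and 4 lower in E9.5 Ctrl, and 2 higher and 5 lower in E9.5 cKO.

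Among guidance genes, Nrp1 and Nrp2, which encode co-receptors for semaphorins and VEGF, went opposite ways. Nrp1 was at 6.28 and 2.82 UPM in E9.5 members against 60.0 and 24.6 in other mesenchyme, with no UMI in E8.5 members, while Nrp2 was at 87.9 and 86.3 UPM against 27.6 and 52.5. The difference in Nrp2 passed the call in E9.5 Ctrl (log2 ratio 1.67) and not in E9.5 cKO (0.72). Unc5c, a netrin receptor, had log2 ratios of 1.75 and 1.81. In all, 5 of 26 guidance genes were higher and 5 lower in E9.5 Ctrl, and 3 of 27 higher and 5 lower in E9.5 cKO.

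Of the 11 Notch genes tested in E9.5 Ctrl, 1 was higher (Hey2, a transcriptional repressor downstream of Notch) and 4 were lower, and in E9.5 cKO 1 of 13 was higher and 4 lower. Lateral plate and limb genes gave 1 higher and 1 lower of 13 in E9.5 Ctrl and 2 and 7 of 16 in E9.5 cKO, matrix genes 4 and 4 of 36 and 1 and 5 of 36, FGF genes none and 2 of 15 and none and 3 of 15. Retinoic acid, FGF and matrix genes added single examples. Rdh10, which makes retinaldehyde, was at 35.3 and 22.3 UPM in E9.5 members against 14.7 and 10.8, whereas Cyp26a1, which degrades retinoic acid, was at 14.0 and 4.56 against 51.2 and 25.4. Spry1, an FGF feedback inhibitor, was at 2.42 and 4.77 UPM against 23.0 and 21.2. Fbln1, a matrix glycoprotein, was at 278 and 134 UPM against 118 and 70.9, and Lum, a small leucine-rich proteoglycan, at 60.9 and 33.6 against 282 and 128. None of the 24 S phase genes and none of the 24 G2 and M phase genes was called in either direction between members and other mesenchyme in any of the 4 libraries. By the rule for named genes, the lowest in members of both Ctrl libraries included Shisa2, a modulator of WNT and FGF receptors, with log2 ratios of -2.54 and -2.47, and Igfbp5, an IGF-binding protein, with -2.18 and -2.60.

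Regional genes divided the E9.5 members. Hox genes pattern the body axis, and with 27 of them summed, 26 of 95 Ctrl members (27.4%) and 94 of 226 cKO members (41.6%) held at least 1 Hox UMI. At equal depth these shares were 12.9% (exact interval 6.85 to 21.5) and 30.4% (24.4 to 37.0), against 31.6% and 38.8% of other mesenchyme. The UMIs came mostly from Hoxa2 and Hoxb2, which mark the second arch and hindbrain level: Hoxa2 had 26 UMIs in 12 Ctrl and 104 UMIs in 59 cKO members, and Hoxb2 26 in 13 and 109 in 54. Genes of groups 6 to 9 had none at E9.5. In cKO, members with a Hox UMI held less Igf1 than those without (92.4 against 177 UPM, log2 ratio -0.94, -1.19 to -0.70), and in Ctrl 176 against 224 UPM (-0.35, -0.67 to -0.03), neither past the call. In cKO the somitic genes Meox1 and Tcf15 passed it: members with a Hox UMI held 61 UMIs of Meox1 against 12 (log2 ratio 2.45, 1.55 to 3.48) and 58 of Tcf15 against 8 (2.97, 1.89 to 4.25). Pax3, a paired-box factor of dermomyotome and dorsal neural tube, had 11 UMIs in cKO members with a Hox UMI and 0 in those without, too few to be tested. In Ctrl, Meox1 had 2 and 2 UMIs and Tcf15 4 and 1. No set of Hox-free cells was defined, so the part of free RNA in these single UMIs was not tested.

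Foxd1 and Foxf2, forkhead factors of head mesenchyme, together reached 2 UMIs in 33 of 95 Ctrl members (34.7%) and 75 of 226 cKO members (33.2%), against 42.8% and 41.0% of other mesenchyme and 2.21% and 2.90% of endothelial cells. At equal depth the member shares were 15.1% and 14.3%, with 27.8% and 25.9% in other mesenchyme. In these Foxd1-positive members, Foxc2 was higher than in members without Foxd1 and Foxf2 UMIs, by a log2 ratio of 3.08 (1.62 to 5.02) in Ctrl and 1.25 (0.52 to 2.04) in cKO. Tbx18 was higher in cKO, by 1.65 (0.38 to 3.11) on 23 and 7 UMIs, and had 18 and 4 UMIs in Ctrl, too few to be tested. Zic1, Igf1 and Lef1 did not differ by the call between the same cells in either genotype.

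Meox1 and Tcf15 together reached 2 UMIs in 1 of 95 Ctrl members (1.05%) and in 19 of 226 cKO members (8.41%), and at equal depth in 0 of 93 (exact upper bound 3.89%) and 10 of 217 (4.61%). These shares did not exceed those of endothelial cells (4.42% and 8.70%) or of cells with more than 2 Epcam UMIs (7.81% and 31.3%, median 18763 and 18481 UMIs) in the same libraries. Single cKO members held up to 18 of these UMIs. The 19 cKO members that reached 2 UMIs also held more Foxc2 than the 176 with none (41.4 against 17.0 UPM, log2 ratio 1.28, 0.49 to 2.02) and more Tbx1 (63.1 against 20.3 UPM, 1.64, 0.98 to 2.26), and 7 against 4 UMIs of Pax3. The part of free RNA in the Meox1 and Tcf15 UMIs was not tested. Over all cells passing the exclusions the share was 17.1% in E9.5 Ctrl and 29.9% in E9.5 cKO. In cKO the Epcam-positive cells did not lie below that share, so they do not give a background for these genes. In E8.5 Ctrl, 7 of 15 members reached 2 UMIs, against 35.2% of other mesenchyme.

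**Figure D4:**
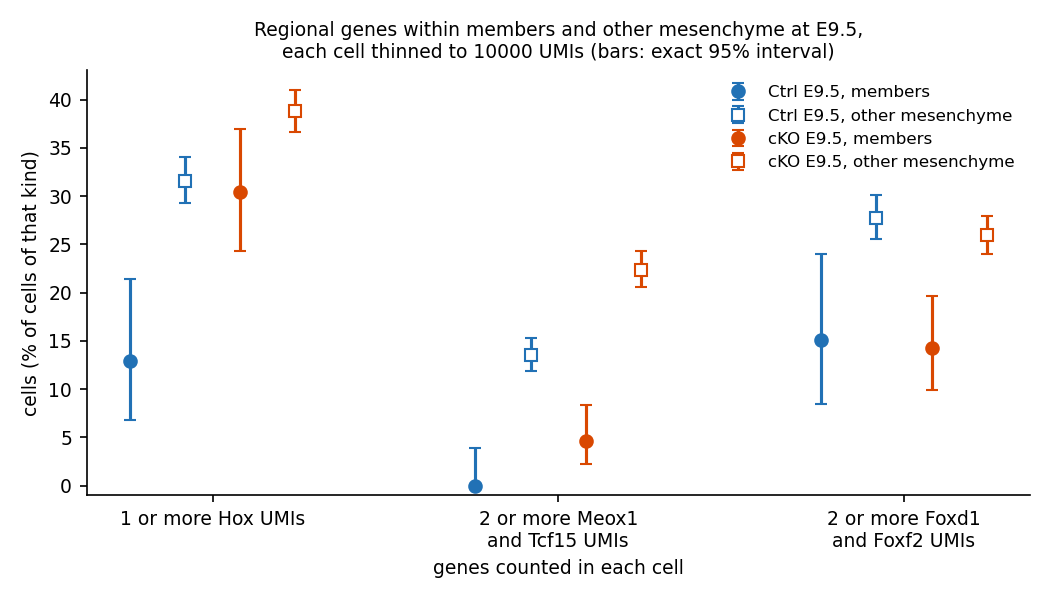
Share of E9.5 cells, at 10000 UMIs per cell, with 1 or more Hox UMIs, 2 or more Meox1 and Tcf15 UMIs, or 2 or more Foxd1 and Foxf2 UMIs, in members and other mesenchyme of each genotype; the vertical axis is in percent and bars are exact 95% intervals for counting error. The Hox share of members is 12.9% in Ctrl and 30.4% in cKO, and members lie below other mesenchyme in all 6 pairs.

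Between genotypes at E9.5, none of the 3 markers that the rule did not use and 1 of 26 WNT genes passed the call in the members. Before TMM scaling all 3 markers lay lower in cKO with intervals that exclude 0, which for Msx2 depends on the scaling. At equal depth 68.8% of Ctrl and 42.9% of cKO members held at least 2 of them. Of 8972 genes tested, 203 were called higher (2.26%) and 365 lower (4.07%) in cKO than in Ctrl members, and the median log2 ratio of cKO to Ctrl was -0.16. With TMM scaling, which balances the ratios of most genes, the median was 0.03, and 324 genes were higher and 192 lower, so higher calls went from 35.7% to 62.8% of all calls and a small shift in either direction depends on the scaling. In other mesenchyme of the same libraries the median was -0.19.

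The 3 markers not used by the rule lay lower in cKO members without passing the call, and lay lower by a like amount in other mesenchyme. Igf1 was at -0.62 (-0.80 to -0.44), with -0.59 in other mesenchyme. Gdf10 was at -0.97 (-1.35 to -0.59), with -0.82, and Msx2 at -0.38 (-0.59 to -0.16), with -0.31. Of the WNT pathway genes, 1 of 26 was called higher and none lower (median -0.21): Wnt6 went from 11 UMIs in Ctrl to 65 in cKO members, a log2 ratio of 1.41 (0.47 to 2.48), and had the same ratio of 1.41 in other mesenchyme. Sp5 was at -0.26 (-0.53 to 0.02), Nkd1 at -0.23 (-0.39 to -0.08) and Lef1 at -0.41 (-0.68 to -0.13). For Msx2, Nkd1 and Lef1 the upper bounds are smaller in size than the shift of the median under TMM scaling. Whether their intervals include no change therefore depends on the scaling.

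Some WNT genes had a different sign in members and in other mesenchyme. Dkk1 was at -0.62 (-1.0 to -0.23) in members and 1.15 in other mesenchyme, where it went from 10.3 to 22.8 UPM. Axin2 was at 0.45 (0.10 to 0.82) in members and -0.38 in other mesenchyme, and Rspo3 at -0.24 (-0.54 to 0.07) and 0.85. The difference between the ratios in the 2 kinds of cells was not tested, since there is 1 library per genotype.

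**Figure D5:**
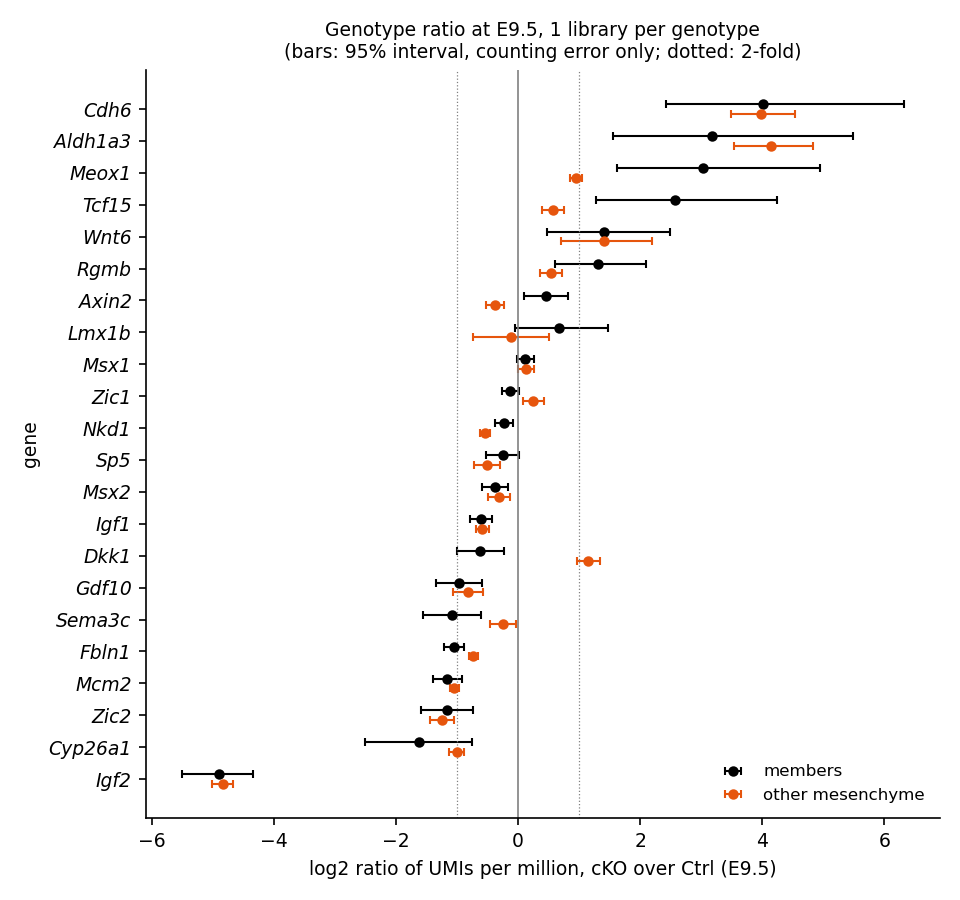
Log2 ratio of cKO to Ctrl at E9.5 (horizontal axis) for 22 genes in members (black) and in other mesenchyme (orange), with 95% counting intervals; there is 1 library per genotype. Cdh6 and Igf2 have nearly the same ratio in both kinds of cells, Meox1 and Tcf15 are higher in members, and Dkk1 and Axin2 differ in sign.

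Of the genes called between genotypes in members, 261 also passed 2-fold with the same sign in other mesenchyme and 132 stayed below 1.5-fold there. Of the 10 highest and 10 lowest ratios in members, all but those of Myh7 and Ttn, whose Ctrl UMIs came mostly from the cardiac cell, passed 2-fold with the same sign in other mesenchyme. Cdh6, a cadherin of neural crest and paraxial mesoderm, went from 3 UMIs in 95 Ctrl members to 108 in 226 cKO members, a log2 ratio of 4.01, with 3.98 in other mesenchyme. Igf2, the fetal insulin-like growth factor, fell from 181 to 6.07 UPM, a log2 ratio of -4.89 (-5.50 to -4.34), with -4.84 in other mesenchyme. Pgk1, a glycolytic enzyme, rose from 64.7 to 823 UPM, by 3.67, with 3.81. Tfdp1, a partner of E2F factors, rose by 6.83, from 2 to 508 UMIs, with 5.52 in other mesenchyme, and Srp54b, a gene of the signal recognition particle, went from 219 to 2 UMIs, a ratio of -7.93 with -8.84 in other mesenchyme. The E9.5 cKO library is the only one counted against the longer gene table. For these genes, and for every other genotype ratio at E9.5, genotype, library and gene table cannot be told apart. In the E8.5 cKO library, which has the shorter table, Igf2 was at 77.2 UPM and Pgk1 at 154 UPM in members. Foxl2, a forkhead factor of periocular and ovarian tissue, had no UMI in Ctrl members and 97 in cKO members, at least 3.86 higher on the log2 scale against a floor of 3 UMIs over the group, and 1 against 247 UMIs in other mesenchyme.

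Aldh1a3 and Cyp26a1, which make and degrade retinoic acid, went opposite ways in members. Aldh1a3 had 3 UMIs in Ctrl and 60 in cKO members and rose by 3.17 on the log2 scale (1.55 to 5.49), with 4.15 in other mesenchyme. Cyp26a1 fell from 14.0 to 4.56 UPM, a log2 ratio of -1.62 (-2.50 to -0.76), with -1.01 in other mesenchyme. Of 10 retinoic acid genes tested, these were the only ones called.

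A few genes had larger ratios in members than in other mesenchyme, and the difference was not tested. Meox1, Tcf15 and Vegfa were among the 8 genes ranked highest by that difference in these data. For Fgfr2 and Spry2 the interval in members holds the ratio in other mesenchyme. Meox1 was at 3.04 (1.62 to 4.95) in members, from 4 UMIs in 3 Ctrl cells to 73 in 28 cKO cells, with 0.95 in other mesenchyme, and Tcf15 at 2.57 (1.27 to 4.24), from 5 UMIs in 4 cells to 66 in 33, with 0.57. The share of members with 2 or more of these UMIs did not exceed that of endothelial cells, and the part of free RNA was not tested. Fgfr2, an FGF receptor, rose from 4.35 to 12.4 UPM, by 1.51 (0.48 to 2.71), with 0.49 in other mesenchyme, and Spry2, an FGF feedback inhibitor, from 8.21 to 16.9 UPM, by 1.04 (0.27 to 1.89), with 0.70. Rgmb, a BMP co-receptor, rose from 9.18 to 22.8 UPM, by 1.31 (0.60 to 2.10), with 0.54. Vegfa, an endothelial growth factor, rose on few UMIs, from 5 to 36, by 1.69 (0.34 to 3.40), with -0.28. At 10000 UMIs per cell Rgmb stood at 0.62 and Wnt6 at 0.66, short of the call.

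Among genes that fell, Sema3c, a secreted semaphorin of cardiac outflow tissue, went from 36.7 to 17.4 UPM in members, a log2 ratio of -1.08 (-1.55 to -0.61), with -0.25 in other mesenchyme. Slit2, a repulsive guidance ligand, was at -1.03 (-1.91 to -0.15) on 23 and 25 UMIs, with -0.32. Fbln1 fell from 278 to 134 UPM, a log2 ratio of -1.05 (-1.22 to -0.89), with -0.73. Zic2 went from 46.9 to 20.8 UPM, a log2 ratio of -1.17 (-1.59 to -0.75), with -1.25 in other mesenchyme, while Zic5 was at 0.20 (-0.19 to 0.60). With TMM scaling the ratios of Sema3c, Slit2, Fbln1 and Zic2 were -0.89, -0.84, -0.86 and -0.98, short of the call.

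S phase genes lay lower in cKO members as a list. Of 24, 6 were called lower (Mcm2, Mcm7, Rrm1, Cdc6, Pola1 and Dtl) and none higher, the median log2 ratio was -0.65 and 1 of the 24 lay above 0. In other mesenchyme 3 of 24 were lower, with a median of -0.56. Mcm2, a subunit of the replicative helicase, fell from 144 to 64.7 UPM in members, a ratio of -1.16 (-1.40 to -0.92), with -1.05 in other mesenchyme. The G2 and M phase genes had a median of -0.31, with Plk1 alone called, at -1.01 (-1.26 to -0.77). With TMM scaling Mcm2 stood at -0.97, Mcm7 at -0.88, Rrm1 at -0.83 and Plk1 at -0.82, short of the call. The 16 early response and stress genes summed to 5798 UPM in Ctrl and 2703 in cKO members at E9.5, and to 5457 and 2750 in other mesenchyme. Of the 9 tested in members, only Hspa8 was called, as lower, and the median log2 ratio was -0.38. In other mesenchyme 3 of 13 were lower and none higher, with a median of -0.41. The part of these stress genes in the genotype ratios was not tested.

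Without the 1 cardiac cell the cardiomyocyte genes were at few UMIs in both genotypes: Tnnt2 had 3 UMIs in Ctrl and 6 in cKO (log2 ratio -0.17), and Ttn 4 and 2 (-2.17, interval -5.64 to 0.63). General mesenchyme genes (20), cranial genes (14) and hedgehog genes (8) had none called between genotypes in either direction. Twist1 stood at 0.08 (-0.07 to 0.24) and Foxd1 at -0.03 (-0.33 to 0.27). At E8.5, where cKO had 3 members and 90617 UMIs in all, 1.9% of 2105 genes were called higher and 2.95% lower, and the values of single genes are not described. The higher calls were 39.2% of all calls there, and 15.8% with TMM scaling.

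Between stages, Igf1 and 10 of 27 matrix genes were called higher in Ctrl members at E9.5 than at E8.5. Of 6659 genes tested, 708 were called higher at E9.5 (10.6%) and 180 lower (2.7%), 79.7% of the calls being higher, with a median log2 ratio of 0.28. With TMM scaling 473 were higher and 283 lower (62.6% higher, median 0.13), and with the median subtracted 316 and 382 (45.3% higher). At 10000 UMIs per cell 91 were higher and 89 lower, and with the ratio in other mesenchyme subtracted 86 and 125. The E8.5 side rests on 15 cells and 372139 UMIs.

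Igf1 rose from 18.8 to 209 UPM, a log2 ratio of 3.48 (2.42 to 4.80), with 2.54 in other mesenchyme. Msx2 and Gdf10 did not pass the call, at 0.35 (-0.12 to 0.86) and 0.87 (-0.02 to 1.92). Zic2 rose by 1.80 (0.53 to 3.46). Of 13 BMP genes, 4 were higher and none lower (median 0.15), among them Bmp4 at 1.68 (0.40 to 3.34), Bambi, a decoy receptor, at 1.52 (0.43 to 2.87) and Id2 at 1.01 (0.76 to 1.27). With TMM scaling Id2 stood at 0.86. In other mesenchyme Bmp4 stood at 2.08 and Zic2 at 2.44, above the ratios in members, so that with that ratio subtracted both changed sign.

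Among 21 WNT genes 4 were higher and none lower, with a median log2 ratio of 0.17 that lay below the 0.28 of all genes tested. Rspo3 rose by 3.67 (1.79 to 6.73), from 2 UMIs at E8.5 and with a larger ratio of 4.78 in other mesenchyme, Nkd2 by 1.73 (0.45 to 3.38), Sfrp1, a secreted frizzled-related protein, by 2.56 (1.74 to 3.53) and its relative Sfrp2 by 2.46 (1.06 to 4.35), with 0.57 for Sfrp2 in other mesenchyme. At 10000 UMIs per cell Sfrp2 stood at 0.13, short of the call. Sp5, Nkd1 and Lef1, among the genes highest in members over other mesenchyme, did not pass the call. Sp5 was at 0.23 (-0.37 to 0.89), Nkd1 at 0.29 (-0.05 to 0.66) and Lef1 at -0.65 (-1.11 to -0.17).

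Matrix genes were called higher in 10 of 27 and lower in 1 (median 0.97), including Col1a2 at 2.71 (1.57 to 4.18) and Col3a1 at 1.93 (1.43 to 2.47), with 2.77 and 3.75 in other mesenchyme. At 10000 UMIs per cell Col1a2 stood at 0.54, short of the call. Vim, the intermediate filament of mesenchyme, rose from 77.9 to 530 UPM, by 2.77 (2.24 to 3.35), Prrx1, a homeodomain factor of limb and craniofacial mesenchyme, by 1.48 (0.96 to 2.04) and Nr2f1, a nuclear receptor, by 3.76 (2.53 to 5.40). In other mesenchyme Vim rose from 31.5 to 201 UPM and Nr2f1 by 2.51. Crabp2, a retinoic acid-binding protein, rose by 2.98 (2.27 to 3.80), and Gas1 by 1.77 (1.21 to 2.38). S phase genes were higher in 10 of 24 (median 0.82) and G2 and M phase genes in 4 of 24 (0.30). Over all genes tested 10.6% were higher and the median was 0.28. The S phase sum rose from 2123 to 3400 UPM in members and from 2357 to 3321 in other mesenchyme. The G2 and M phase sum rose from 2988 to 3869 UPM and from 3114 to 4028.

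Among the genes that fell, Tcf15, a helix-loop-helix factor of somites, went from 28 UMIs in 15 cells at E8.5 to 5 in 95 cells at E9.5. Its log2 ratio was -4.96 (-6.69 to -3.57), with -2.42 in other mesenchyme. Of 4 FGF pathway genes tested, the feedback genes Spry2 and Dusp6 were lower, Spry2 at -3.29 (-4.25 to -2.39) and Dusp6 at -1.71 (-2.26 to -1.14), as were the Notch receptor gene Notch2 at -1.85 (-2.63 to -1.05) and the ligand gene Jag1 at -1.74 (-2.84 to -0.57). Igfbp2, an IGF-binding protein, fell from 199 to 30.9 UPM, a log2 ratio of -2.69 (-3.19 to -2.18). In other mesenchyme Igfbp2 stood at -1.49 and Spry2 at -1.90. Of 16 glycolysis and hypoxia genes, 4 were lower, among them Hk2, which phosphorylates glucose, at -2.18 (-2.73 to -1.62) with -2.02 in other mesenchyme. The dissected region differed between the stages, so stage, region and library cannot be told apart. In cKO, where the E8.5 side is 3 cells, 2.07% of 8111 genes were higher at E9.5 and 3.38% lower, the higher calls being 38.0% of all calls and 58.7% with TMM scaling.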

How the data were processed

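GFP-positive cells were profiled in 4 libraries with 10x Chromium 3' chemistry, 1 for each genotype and stage. The authors aligned and counted the reads with Cell Ranger (3.1.0 in the submitters' processing notes, 3.0.2 in the header of the E8.5 matrices) against mm10 and deposited filtered matrices of raw UMI counts per gene and cell, with no normalization. The rule was applied to the raw counts, and counts were summed over the cells of a set and given as UMIs per 1000000 UMIs (UPM). Ratios carry exact conditional binomial 95% intervals, levels exact Poisson intervals and shares exact Clopper-Pearson intervals, without p-values, since each group is 1 library. A gene was tested with at least 30 UMIs over both groups, and a group at 0 was set to a floor of 3 UMIs. Only the 27514 identifiers in all 4 gene tables were used. Thinning drew 10000 UMIs per cell and left out shallower cells (135, 84, 555 and 718). The calculation was tested on simulated counts. The named genes were the members of 31 gene lists, the 15 highest and 10 lowest in members over other mesenchyme in both Ctrl libraries (with 10 UPM added to both levels), and for each contrast the 10 highest and 10 lowest ratios, plus for genotype at E9.5 the 8 genes at each end by the difference from other mesenchyme. Sex-linked, haemoglobin, mitochondrial, ribosomal and unnamed genes were not ranked. The members and lists were chosen with earlier results of these data known. Alternatives were other thresholds, thinning, a UMI ceiling, TMM scaling (edgeR 4.0.16), subtraction of the median or of the ratio in other mesenchyme, means over cells, other UMI minimums and other comparison cells. Scripts ran in Python 3.11.15 with pandas 2.3.3, scipy 1.17.1 and numpy 2.4.6. Some genes are not reported here.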

Additional observations from a re-analysis of the deposited data

Results flagged for a closer look

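Cardiomyocyte genes stood above other mesenchyme in E9.5 Ctrl members and below it in E9.5 cKO members: the log2 ratios of members to other mesenchyme were 1.98 and -3.33 for Myh7, 1.33 and -1.56 for Myl4, 1.0 and -1.97 for Tnnt2, and 1.77 and -3.62 for Ttn. Of the Ctrl UMIs of these genes most came from the 1 cell that held 417 of the 486 cardiomyocyte-list UMIs. Without it Myh7 had 3 UMIs in Ctrl members, Myl4 10, Tnnt2 3 and Ttn 4, against 1, 19, 6 and 2 in cKO members. The cKO ratios depend on 5 other mesenchymal cells with more than 100 UMIs of the list. Without all such barcodes Myl4 stood at 0.034 in Ctrl and 0.033 in cKO, Tnnt2 at 0.11 and -0.23, and Ttn at 0.39 and -2.30. Tmem245 had a log2 ratio of cKO to Ctrl members of 2.54 at E8.5 and -1.70 at E9.5, where the E8.5 value rests on 3 cKO cells. Pgk1 had a log2 ratio of E9.5 to E8.5 members of -1.84 in Ctrl and 2.41 in cKO, and its level of 823 UPM in E9.5 cKO members was matched by a rise in other mesenchyme of that library. None of these differences between libraries was tested, since each group is 1 library.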

How the results depend on the processing

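Leaving out a replicate was not possible because each group is 1 library. No paired analysis was possible because each group has 1 sample. Of the counts and shares, 54 changed by more than 1.5 times or beyond their interval under an alternative and 80 did not. Of the values of single genes, 1611 kept their side of the call, 54 passed it newly and 137 no longer passed it. Another 27 changed sign and were called in the main setting, the alternative or both. For genes called in neither, the sign was not compared. The causes were not tested.

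The share of members in E8.5 Ctrl, E8.5 cKO, E9.5 Ctrl and E9.5 cKO was 3.07%, 1.93%, 3.06% and 5.59% at a threshold of 1 UMI, 0.558%, 1.34% and 2.62% in E8.5 Ctrl, E9.5 Ctrl and E9.5 cKO at 3 UMIs, and 0.308%, 1.14% and 2.38% in the same libraries after thinning. For genotype at E9.5, 101 genes were higher after thinning, 324 were higher and 192 lower with TMM scaling, 199 were lower with the median subtracted, 81 and 180 passed with at least 100 UMIs, and 75 and 60 with the ratio in other mesenchyme subtracted. For genotype at E8.5, 86 were higher at a threshold of 1 UMI, 5 higher and 17 lower after thinning, 22 and 117 with TMM, 168 lower by means over cells, 112 higher with at least 10 UMIs, 8 and 12 with at least 100, and 26 and 34 with other mesenchyme subtracted. For stage in Ctrl, 412 were higher at 3 UMIs, 91 higher and 89 lower after thinning, 283 lower with TMM, 316 and 382 with the median subtracted, 1171 higher by means over cells, 402 and 70 with at least 100 UMIs, and 86 higher with other mesenchyme subtracted. For stage in cKO, 526 were higher at 1 UMI, 98 at 3 UMIs, 26 higher and 108 lower after thinning, 176 lower with TMM, 831 and 898 by means over cells, and 42 higher with other mesenchyme subtracted. Members against other mesenchyme gave 109 higher and 22 lower after thinning and 73 lower at 3 UMIs in E8.5 Ctrl, and against all other cells passing the exclusions or all other barcodes 476 and 767 lower in E9.5 Ctrl and 503 and 654 lower in E9.5 cKO.

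With the ratio in other mesenchyme subtracted, the genotype ratio at E9.5 changed sign for Aldh1a3 (-0.98), Fdx1l (1.11), Pgk1 (-0.14), Wnt6 (-0.0050) and Zic2 (0.078), and the stage ratio in Ctrl for Bmp4 (-0.41), Col1a2 (-0.054), Col3a1 (-1.82), Pgk1 (0.32), Rspo3 (-1.10) and Zic2 (-0.63). Without the cardiac cell, Actc1 stood at 0.28 and Myl7 at 0.55 between genotypes. Against all other cells passing the exclusions and all other barcodes, members were lower in Myl4 (-2.13 and -1.81) and Tnnt2 (-2.69 and -2.38) in E8.5 Ctrl, and in Myh7 (-0.66 and -0.24), Myl4 (-1.63 and -1.16), Tnnt2 (-2.17 and -1.73) and Ttn (-1.26 and -0.83) in E9.5 Ctrl, with Wnt6 at -0.75 against all other barcodes. Without barcodes high in cardiomyocyte genes, an alternative chosen after seeing the data, Myl4 stood at 0.033 in E9.5 cKO. At E8.5 the 15 and 3 members limit what can be detected.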
